A study of Mus musculus with 9 samples.

Results

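The homeostatic microglia genes are the 9 genes P2ry12, P2ry13, Tmem119, Cx3cr1, Sall1, Gpr34, Siglech, Fcrls and Olfml3, picked by name from the 22482 genes of the table. They were followed over 9 RNA-seq libraries of mouse brain, in 3 groups of 3. In the C-β-LG/DSF group, mice with a brain injury from a falling weight received C-β-LG/DSF, a nanoparticle preparation, into the tail vein. The TBI group had the same injury without it, and in the Sham group the skull and dura were opened over undamaged brain. Tissue was taken from the injured area, or from the corresponding place in Sham. The labels name no strain, sex, age, dose or time after injury. They also leave unsaid whether each library is a separate animal, and p-values therefore measure only the spread between these samples.

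Microglia are the resident macrophages of the brain. In undisturbed tissue they survey their surroundings with fine processes and carry a set of surface receptors and a transcription factor, SALL1, by which they are told from other macrophages. In many models of injury and degeneration, activated microglia express less of this set per cell while they multiply and express genes of phagocytosis, so that a bulk measurement mixes both changes. P2ry12 and P2ry13 encode G protein-coupled receptors for ADP, and P2Y12 steers microglial processes toward nucleotide released at damage. Gpr34 encodes a receptor for lysophosphatidylserine. Cx3cr1 encodes the receptor for the neuronal chemokine fractalkine and is also expressed by monocytes. Siglech encodes a sialic acid-binding lectin, Fcrls a scavenger receptor of the Fc receptor-like family, Tmem119 a membrane protein and Olfml3 a secreted glycoprotein.

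P2ry12 and P2ry13 lie side by side on chromosome 3 (59216272 to 59262871 and 59207892 to 59210882, GRCm38), both on the minus strand inside the gene Med12l on the plus strand. Gpr34 lies on chromosome X (13632089 to 13640858) inside Cask, which runs on the opposite strand. Of the other members, Fcrls (87250758 to 87263738) and Olfml3 (103722222 to 103738001) are on chromosome 3, Tmem119 on chromosome 5 (113793729 to 113800516), Siglech on chromosome 7 (55768178 to 55778925), Sall1 on chromosome 8 (89027235 to 89044162) and Cx3cr1 on chromosome 9 (119901616 to 120069879). The 250 bases before the start of transcription are shown for the adjacent ADP receptor genes, which had the smallest differences between TBI and Sham, and for Fcrls, which had the largest. They are chr3:59262986-59263235, chr3:59210883-59211132 and chr3:87263525-87263774, all minus strand, from RefSeq on GRCm38.p6. Capitals mark GAGGAA, the core of the box bound by PU.1, the transcription factor of the macrophage lineage, and the P2ry12 window has none.
P2ry12: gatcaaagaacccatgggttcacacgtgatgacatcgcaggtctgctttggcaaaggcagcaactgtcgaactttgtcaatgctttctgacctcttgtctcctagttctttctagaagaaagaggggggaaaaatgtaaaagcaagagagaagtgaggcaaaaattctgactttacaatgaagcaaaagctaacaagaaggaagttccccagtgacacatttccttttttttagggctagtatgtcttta
P2ry13: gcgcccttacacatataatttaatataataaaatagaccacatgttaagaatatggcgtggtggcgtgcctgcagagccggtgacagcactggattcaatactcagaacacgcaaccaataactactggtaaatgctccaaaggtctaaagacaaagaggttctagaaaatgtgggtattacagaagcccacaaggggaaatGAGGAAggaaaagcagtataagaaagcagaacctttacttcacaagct
Fcrls: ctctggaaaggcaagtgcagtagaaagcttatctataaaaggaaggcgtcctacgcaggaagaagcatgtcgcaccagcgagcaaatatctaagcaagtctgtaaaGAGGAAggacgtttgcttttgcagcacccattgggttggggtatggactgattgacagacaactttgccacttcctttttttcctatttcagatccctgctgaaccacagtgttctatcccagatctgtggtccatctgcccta
RefSeq windows were at hand for 7 of the 9 members, 9 windows in all because Sall1 has several. GAGGAA, searched on both strands, was in 2 of these 9 windows (22.2%), those of P2ry13 and Fcrls, against 23.3% of all 32851 windows of the same length. The composite box of PU.1 with an interferon regulatory factor (GGAA, any 2 bases, then GAAA; both strands) was in 0 of the 9, against 2.3% of all windows. The MEF2 box (CTA, any 4 bases, then TAG) was in 1, that of Cx3cr1, against 3.2% of all. The members' share of GAGGAA was thus near that of promoters at large.

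All 9 genes had their highest group mean in TBI and their lowest in Sham. In TBI against Sham 8 of the 9 rose at an adjusted p under 0.05 in limma, where 14.9% of the 14292 genes tested rose and 26.8% passed in either direction, and none of the 9 fell. The rises ran from 1.77-fold in P2ry12 to 4.42-fold in Fcrls, on the scale of FPKM + 0.5. Set against TBI, all 9 values were lower in C-β-LG/DSF, without any passing the test. Set against Sham, 5 of the 9 rose in C-β-LG/DSF, where 6.37% of all genes rose. That count was 0 without Sham 1 and 1 without Sham 3 or without C-β-LG/DSF 3. The number of all genes called changed between such fits as well. Because the tissue was measured in bulk, more cells of a type and more RNA per cell cannot be told apart.

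**Figure D1:**
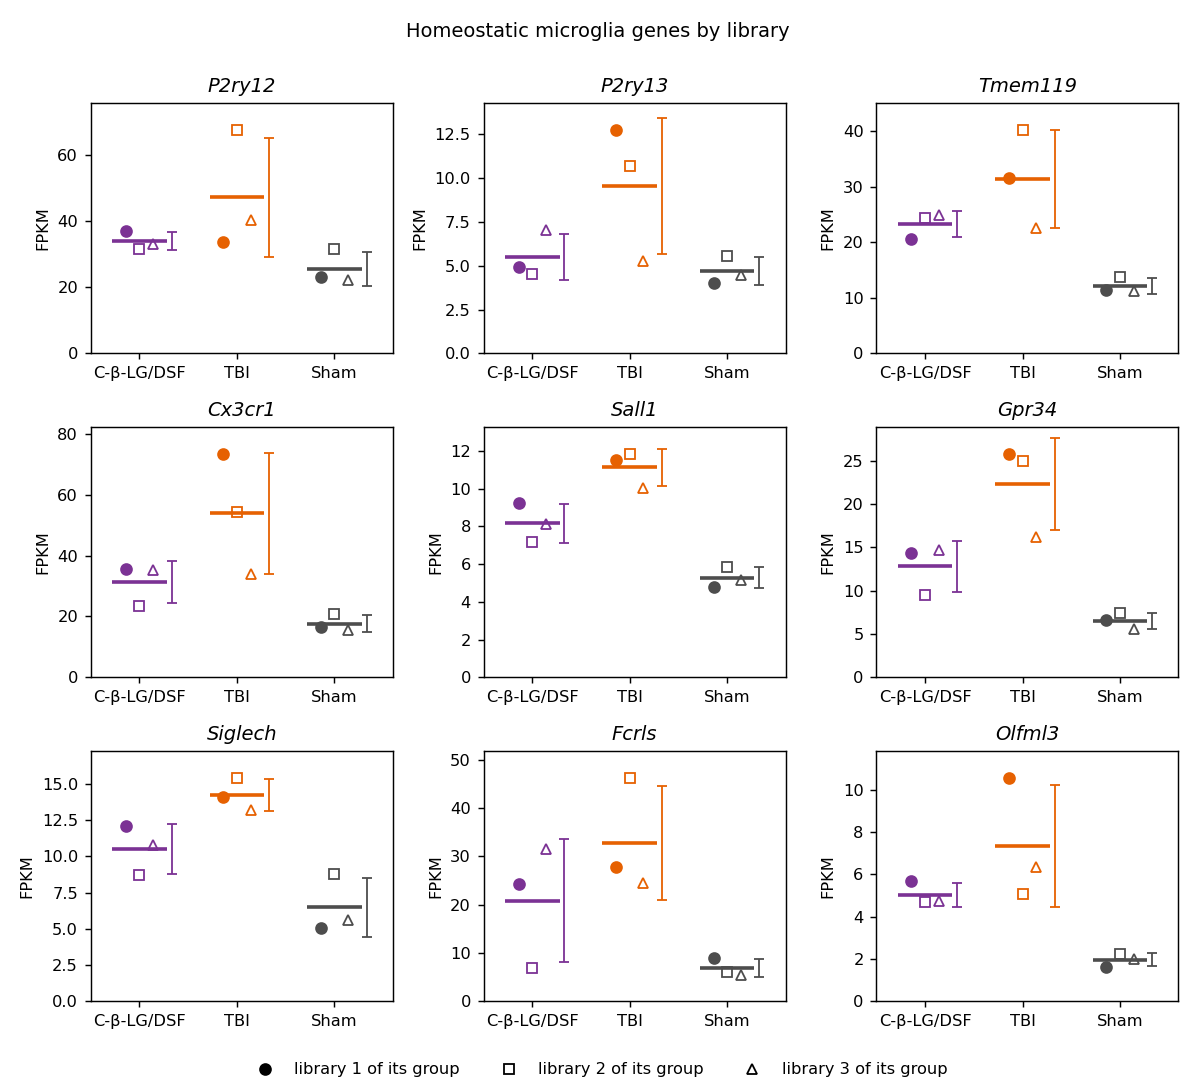
FPKM of each of the 9 genes in every library (points; the marker shape gives the library number), with the group mean (line) and SD (bar beside it, n = 3). All TBI libraries lie above all Sham libraries except in P2ry13, where TBI 3 (5.25 FPKM) lies below Sham 2 (5.56 FPKM).

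The table as a whole gives FPKM, fragments per kilobase of transcript scaled to library size, without the depth of any library. Totals per library ran from 406274 to 445404. A gene was tested when it reached 0.5 FPKM in at least 3 libraries. The lowest value of any member was 1.64 FPKM, so none was tested only because of a high group. Summed FPKM of 8 neuronal genes was 2073 to 2304 in C-β-LG/DSF, 1400 to 2088 in TBI and 3004 to 3106 in Sham. Libraries also differed in markers of brain regions and of blood cells. The mean of 8 thalamic markers, a list assembled with earlier values of these data known, stood at 2.34 in TBI 3, 1.91 in C-β-LG/DSF 2 and 1.34 in C-β-LG/DSF 3 on the log2 scale relative to Sham, and at 0.08 to 0.47 in the other injured libraries. C-β-LG/DSF 2 also had the highest summed FPKM of 8 neutrophil genes, 30.3 FPKM. This sum was 0.795 and 7.19 FPKM in the other C-β-LG/DSF libraries, 2.81 to 5.32 FPKM in TBI and 1.22 to 1.53 FPKM in Sham. S100a8 and S100a9 had the highest means of the 8 in C-β-LG/DSF (4.05 and 6.12 FPKM), the others at most 0.994 FPKM. The highest single values of Ly6g, Mpo and Elane, all under 0.5 FPKM, were in TBI or Sham. Those of the other neutrophil genes were in C-β-LG/DSF.

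Among the ADP receptor genes, P2ry12 had 36.9, 31.5 and 33.1 FPKM in C-β-LG/DSF 1 to 3, 33.6, 67.5 and 40.1 FPKM in TBI 1 to 3, and 23.1, 31.4 and 22.1 FPKM in Sham 1 to 3. TBI 2 stood well above the other TBI libraries, and the lowest TBI library exceeded the highest Sham library by little. P2ry12 rose in TBI against Sham by 0.82 on the log2 scale (SE 0.23, limma adjusted p = 0.0293). That call ended without Sham 1 (0.76, adjusted p = 0.096), without Sham 3 (0.73, adjusted p = 0.102), when TBI and Sham were fitted alone (0.82, adjusted p = 0.0636) and without the 3 libraries of highest thalamic markers (0.90, adjusted p = 0.0651). Without TBI 2 the difference was 0.53 (adjusted p = 0.0429). P2ry13 had 4.95, 4.55 and 7.03 FPKM in C-β-LG/DSF, 12.8, 10.7 and 5.25 FPKM in TBI, and 4.03, 5.56 and 4.47 FPKM in Sham. TBI 3 lay within the Sham range, TBI 1 and TBI 2 above it. The P2ry13 difference between TBI and Sham was 0.88 (SE 0.29, adjusted p = 0.0518) and did not pass. It passed without TBI 3 (1.24, adjusted p = 0.00249), without the 3 libraries of highest thalamic markers (1.24, adjusted p = 0.00436), with all totals made equal (0.92, adjusted p = 0.0455) and with libraries scaled by their median ratio (0.90, adjusted p = 0.0497). These adjacent genes did not follow each other across the TBI libraries. P2ry12 was lowest in TBI 1, where P2ry13 was highest.

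Of other genes at the ADP receptor locus, P2ry14 and Med12l did not pass in TBI against Sham. Igsf10 averaged 0.922 ± 0.338 FPKM in C-β-LG/DSF, 0.891 ± 0.204 FPKM in TBI and 0.346 ± 0.0318 FPKM in Sham, and is given without a test because it met the filter only through the injured libraries. P2ry14, a neighbouring receptor gene for UDP-sugars, averaged 1.53 ± 0.491 FPKM in C-β-LG/DSF, 1.74 ± 0.294 FPKM in TBI and 1.74 ± 0.229 FPKM in Sham (SD, n = 3 each; TBI against Sham, limma adjusted p = 0.999). Med12l, the gene on the opposite strand, averaged 5.03 ± 0.765 FPKM in C-β-LG/DSF, 3.87 ± 0.832 FPKM in TBI and 4.26 ± 0.320 FPKM in Sham, a log2 difference of -0.14 between TBI and Sham (SE 0.17, adjusted p = 0.57). Cask, around Gpr34, fell in TBI against Sham by 0.50 (SE 0.10, adjusted p = 0.00816). No source used here says whether counting used strand, so reads of a member and of the gene on its opposite strand may have been shared out between them.

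The lipid and chemokine receptor genes both rose in TBI. Gpr34 had 14.3, 9.44 and 14.7 FPKM in C-β-LG/DSF, 25.8, 24.9 and 16.2 FPKM in TBI, and 6.59, 7.44 and 5.57 FPKM in Sham. The 3 groups were fully separate, each C-β-LG/DSF library lying between the TBI and the Sham libraries. Its log2 difference in TBI against Sham was 1.68 (SE 0.22, adjusted p = 0.00147). Cx3cr1 had 35.5, 23.4 and 35.1 FPKM in C-β-LG/DSF, 73.5, 54.3 and 33.9 FPKM in TBI, and 16.5, 20.7 and 15.4 FPKM in Sham. TBI 3 was at the level of C-β-LG/DSF 1 and 3, and all injured libraries exceeded all Sham libraries. Cx3cr1 rose by 1.54 in TBI against Sham (SE 0.27, adjusted p = 0.00396). As annotated, Cx3cr1 overlaps several other genes, of which Csrnp1 (-0.76, adjusted p = 0.00861) and Wdr48 (-0.36, adjusted p = 0.0206) fell in TBI against Sham.

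The surface lectin, scavenger and membrane protein genes rose as well. Siglech had 12.1, 8.69 and 10.8 FPKM in C-β-LG/DSF, 14.1, 15.4 and 13.2 FPKM in TBI, and 5.04, 8.79 and 5.59 FPKM in Sham. TBI stood apart from both other groups, while C-β-LG/DSF 2 lay just under Sham 2. The log2 difference of Siglech in TBI against Sham was 1.11 (SE 0.19, adjusted p = 0.00397). Tmem119 had 20.7, 24.4 and 24.99 FPKM in C-β-LG/DSF, 31.5, 40.3 and 22.6 FPKM in TBI, and 11.4, 13.7 and 11.2 FPKM in Sham. All 6 injured libraries were above the Sham range, and TBI 3 lay among the C-β-LG/DSF libraries. Tmem119 rose by 1.31 in TBI against Sham (SE 0.19, adjusted p = 0.00202).

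Fcrls had the widest spread within C-β-LG/DSF. It had 24.2, 6.89 and 31.5 FPKM in C-β-LG/DSF, 27.8, 46.3 and 24.5 FPKM in TBI, and 9.06, 6.12 and 5.53 FPKM in Sham. C-β-LG/DSF 2 was within the Sham range, and the authors' interval around its value (2.76 to 11.0 FPKM) lay below that of every TBI library. The other C-β-LG/DSF libraries were at the level of TBI. Fcrls rose by 2.14 in TBI against Sham (SE 0.49, adjusted p = 0.0121). Its difference between C-β-LG/DSF and Sham was 1.31 (SE 0.49, adjusted p = 0.107), and without C-β-LG/DSF 2 it was 1.95 (adjusted p = 0.0113). The part of the thalamic and neutrophil markers of C-β-LG/DSF 2 in this low value was not tested.

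Sall1, the gene of the transcription factor that maintains microglial identity, varied little within groups. It had 9.23, 7.16 and 8.12 FPKM in C-β-LG/DSF, 11.5, 11.9 and 10.04 FPKM in TBI, and 4.78, 5.88 and 5.17 FPKM in Sham. The 3 groups did not overlap, with C-β-LG/DSF in the middle. Sall1 rose by 1.01 in TBI against Sham (SE 0.13), with the smallest adjusted p of the 9 genes, 0.00129. Olfml3, the secreted member, had 5.66, 4.68 and 4.72 FPKM in C-β-LG/DSF, 10.6, 5.08 and 6.35 FPKM in TBI, and 1.64, 2.25 and 1.997 FPKM in Sham. TBI 1 was far above the other TBI libraries. The log2 difference of Olfml3 in TBI against Sham was 1.62 (SE 0.23, adjusted p = 0.00203).

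Levels per length can be compared between genes. In Sham the mean FPKM ran in the order P2ry12 (25.5 ± 5.13), Cx3cr1 (17.5 ± 2.79), Tmem119 (12.1 ± 1.42), Fcrls (6.90 ± 1.89), Gpr34 (6.53 ± 0.934), Siglech (6.47 ± 2.02), Sall1 (5.28 ± 0.556), P2ry13 (4.69 ± 0.785) and Olfml3 (1.96 ± 0.304; SD, n = 3 each). From Fcrls to P2ry13 each neighbour in this order overlapped the next, and the other steps had no overlap. In TBI, Cx3cr1 (53.9 ± 19.8) stood before P2ry12 (47.1 ± 17.98), followed by Fcrls (32.8 ± 11.8), Tmem119 (31.5 ± 8.82) and Gpr34 (22.3 ± 5.30), each overlapping the next. Below these, Siglech (14.2 ± 1.14) and Sall1 (11.1 ± 0.970) were separate from their neighbours above, and P2ry13 (9.57 ± 3.88) and Olfml3 (7.33 ± 2.88) were not. The C-β-LG/DSF order was that of Sham, from P2ry12 (33.8 ± 2.75) and Cx3cr1 (31.3 ± 6.88) to Olfml3 (5.02 ± 0.556), and Sall1 (8.17 ± 1.04) and P2ry13 (5.51 ± 1.33) were the only neighbours without overlap. P2ry12 exceeded Cx3cr1 in all 3 Sham libraries, and Cx3cr1 exceeded P2ry12 in TBI 1 and C-β-LG/DSF 3.

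Library by library, the TBI and Sham values did not overlap in 8 of the 9 members, all higher in TBI, where 22.6% of the genes tested had every TBI library above every Sham library. The median log2 difference of the 9 was 1.31, against 0.0082 over all genes tested. The authors' own intervals around single values were wide, with a median half-width of 42.7% of the value in Sall1 to 107% in P2ry13. The lower bound lay above all Sham upper bounds in 2 TBI libraries for Fcrls, in 1 each for Tmem119 and Olfml3, and in 0 for the other 6 members. The P2ry13 interval included 0 in 7 of the 9 libraries and that of Gpr34 in 4. A single library therefore gives little precision for these genes.

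**Figure D2:**
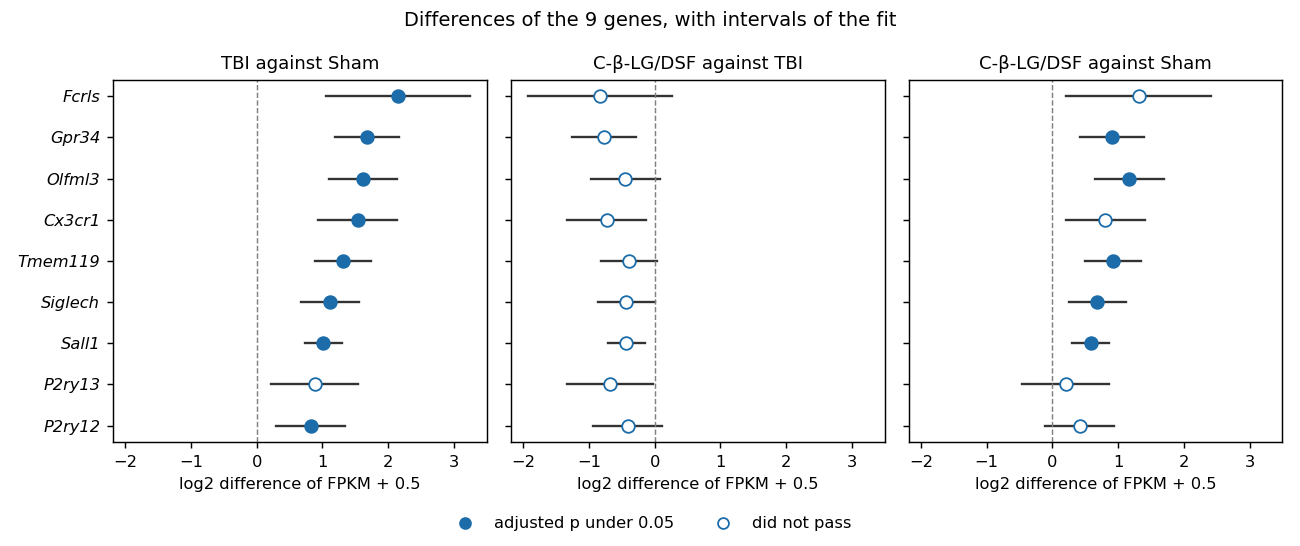
Log2 differences of FPKM + 0.5 for the 9 genes in the 3 comparisons (points), with the 95% interval of the fit for that gene alone (lines); filled points have an adjusted p under 0.05. In C-β-LG/DSF against TBI every point lies below 0 and every point is open.

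Setting C-β-LG/DSF against TBI addresses these genes under the preparation. All 9 were lower in value in C-β-LG/DSF, as were 53.3% of genes tested, with a median log2 difference of -0.45, against -0.017 over all genes tested. None of the 9 passed in limma, and neither did any of the 14292 genes (0%). The largest differences were in Fcrls (-0.83, 95% interval -1.93 to 0.26), Gpr34 (-0.77, 95% interval -1.26 to -0.29) and Cx3cr1 (-0.73, 95% interval -1.33 to -0.13). P2ry13 was at -0.68, Olfml3 at -0.45, Siglech and Sall1 at -0.43, P2ry12 at -0.41 and Tmem119 at -0.39. Adjusted p ran from 0.394 for Gpr34 and Sall1 to 0.493 for Fcrls. Most of these sizes rest on single libraries. Without C-β-LG/DSF 2 the Fcrls difference was -0.19. Without TBI 1 the differences were -0.17 in Olfml3, -0.44 in P2ry13, -0.47 in Cx3cr1 and -0.62 in P2ry12. Without TBI 2 they were -0.12 in P2ry12 and -0.19 in Tmem119, and without TBI 3 they were -1.04 in P2ry13 and -0.60 in Tmem119. Without the 3 libraries of highest thalamic markers they were -1.16 in P2ry13, -0.77 in Tmem119 and -0.28 in Siglech. Gpr34 and Sall1 moved by less than 1.5 times in each of these fits. At an unadjusted p under 0.05 there were 4 members, P2ry13, Cx3cr1, Sall1 and Gpr34, all lower, where 7.47% of genes were lower at that p. In Gpr34, Sall1 and Siglech every C-β-LG/DSF library lay below every TBI library (3 of 9 members, against 9.28% of genes tested). A p that misses the threshold does not show that the groups are alike.

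Against Sham, 5 members rose in C-β-LG/DSF, where 6.37% of genes tested rose. They were Olfml3 (1.17, SE 0.23, limma adjusted p = 0.0131), Tmem119 (0.92, SE 0.19, adjusted p = 0.0143), Sall1 (0.58, SE 0.13, adjusted p = 0.0175), Gpr34 (0.90, SE 0.22, adjusted p = 0.0255) and Siglech (0.69, SE 0.19, adjusted p = 0.0471). The 4 that did not pass were Cx3cr1 (0.81, adjusted p = 0.077), Fcrls (1.31, adjusted p = 0.107), P2ry12 (0.41, adjusted p = 0.273) and P2ry13 (0.20, adjusted p = 0.69). In 6 members every C-β-LG/DSF library exceeded every Sham library, against 22.0% of genes tested. For P2ry12, 1 of these 6, the gap was between 31.5 FPKM in C-β-LG/DSF 2 and 31.4 FPKM in Sham 2. The median difference of the 9 was 0.81, against 0.0084 over all genes. The count of 5 changed when single libraries were left out, and so did the number of all genes called. It was 0 without Sham 1, 1 without Sham 3, 2 without C-β-LG/DSF 1 and 1 without C-β-LG/DSF 3. All 9 differences stayed positive in each of these fits. Over all refits the difference ran from 0.97 to 1.33 in Olfml3, 0.76 to 1.02 in Tmem119 and 0.49 to 0.76 in Sall1. It ran from 0.80 to 1.10 in Gpr34 and 0.54 to 0.91 in Siglech. The comparisons of C-β-LG/DSF and of TBI with Sham share the Sham libraries.

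The members were then set against genes that microglia and macrophages express in any state. Of 8 such pan-microglial genes (among them Csf1r, Aif1, Itgam, Ptprc and Spi1) all rose in TBI against Sham. Their median log2 difference was 1.90, and 14.9% of all genes tested rose. All 8 rose when C-β-LG/DSF was set against Sham, with a median of 1.22, where 6.37% of all genes tested rose. Ptprc, with a lowest Sham value of 0.365 FPKM, passed the filter only with injured libraries. The filter thus favoured its rise, and its part in these counts of 8 is no result. Between C-β-LG/DSF and TBI all 8 were lower in value, with a median of -0.72, against -0.45 for the 9 members. None of the 8 passed there in limma, and all 8 had an unadjusted p under 0.05, where 7.47% of genes tested were lower at that p. Summed FPKM of these 8 genes was 204 to 305 in C-β-LG/DSF, 285 to 582 in TBI and 102 to 133 in Sham. Summed FPKM of the 9 members was 121 to 170 in C-β-LG/DSF, 172 to 276 in TBI and 77.1 to 102 in Sham. Taken as the log2 distance from the mean of the 8 genes in the same library, P2ry12 stood at 0.97, 1.17 and 0.73 in C-β-LG/DSF, -0.29, 1.22 and 1.005 in TBI, with Sham at 1.86, 1.91 and 1.70. All injured libraries were below all Sham libraries on this scale, TBI 1 furthest, but 93.5% of all genes tested had every TBI library below every Sham library. P2ry13 stood at -1.81, -1.50 and -1.43 in C-β-LG/DSF, -1.66, -1.39 and -1.82 in TBI and -0.52, -0.49 and -0.49 in Sham, so the Sham libraries were close together and well above the rest. For Fcrls the same distance was 0.37, -0.95 and 0.66 in C-β-LG/DSF, -0.56, 0.68 and 0.30 in TBI and 0.56, -0.36 and -0.21 in Sham, with the groups mixed.

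**Figure D3:**
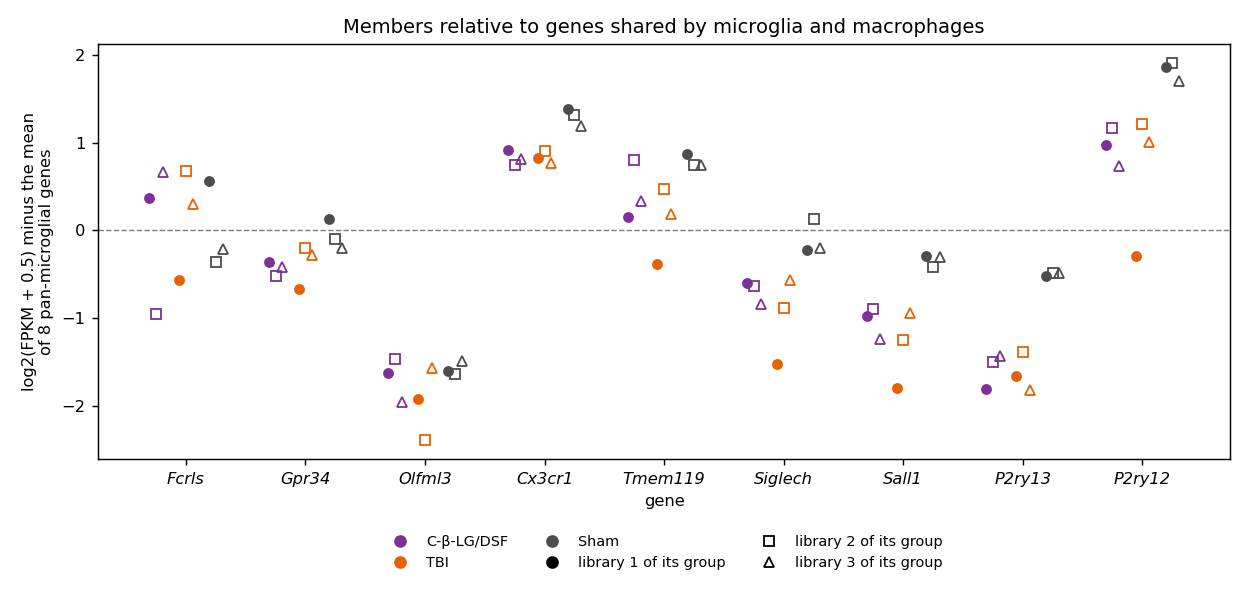
Log2(FPKM + 0.5) of each member minus the mean of the 8 pan-microglial genes in the same library (points; colour gives the group, marker shape the library number). In P2ry12, P2ry13, Cx3cr1, Sall1, Gpr34 and Siglech all injured libraries lie below all Sham libraries, and in Fcrls the groups are mixed. Of all genes tested, 93.5% had every TBI library below every Sham library on this scale.

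In a limma fit of every gene on this relative scale, 5 members were lower in TBI than in Sham. They were P2ry12 (-1.18, SE 0.35), P2ry13 (-1.12, SE 0.31), Sall1 (-0.99, SE 0.32), Siglech (-0.89, SE 0.32) and Tmem119 (-0.69, SE 0.32), with adjusted p from 0.00124 to 0.0406. The error of the subtracted mean is shared by all genes, which the fit does not allow for, so p on this scale may be too small. As the 8 genes themselves rose, 95.0% of all genes tested were lower on this scale, so the count of 5 is below the background and is no result about the members. It was 3 without Sham 2 and 3 without TBI 1. Cx3cr1 (-0.47), Olfml3 (-0.39), Gpr34 (-0.33) and Fcrls (0.14) did not pass. In 7 members every TBI library was below every Sham library, against 93.5% of genes. With C-β-LG/DSF set against Sham 3 members were lower, P2ry13 (-1.08), P2ry12 (-0.87) and Sall1 (-0.70), where 86.4% of genes were. That count was 1 without Sham 1, Sham 2 or C-β-LG/DSF 3, each left out alone. Between C-β-LG/DSF and TBI none of the 9 passed on this scale, where 0.00700% of genes were lower and 0.0140% higher; at an unadjusted p none was under 0.05, and the differences ran from -0.11 in Fcrls to 0.33 in Tmem119. With another 8 genes as the measure (C1qa, C1qb, C1qc, Tyrobp, Fcer1g, Ctss, Ctsd and Cd53, median 2.85 in TBI against Sham and -0.90 between C-β-LG/DSF and TBI), 8 members were lower in TBI and 7 in C-β-LG/DSF than in Sham, where 98.0% and 95.3% of all genes were lower, so these counts too are no result about the members. None of these lists tells microglia from macrophages that entered from blood.

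**Figure D4:**
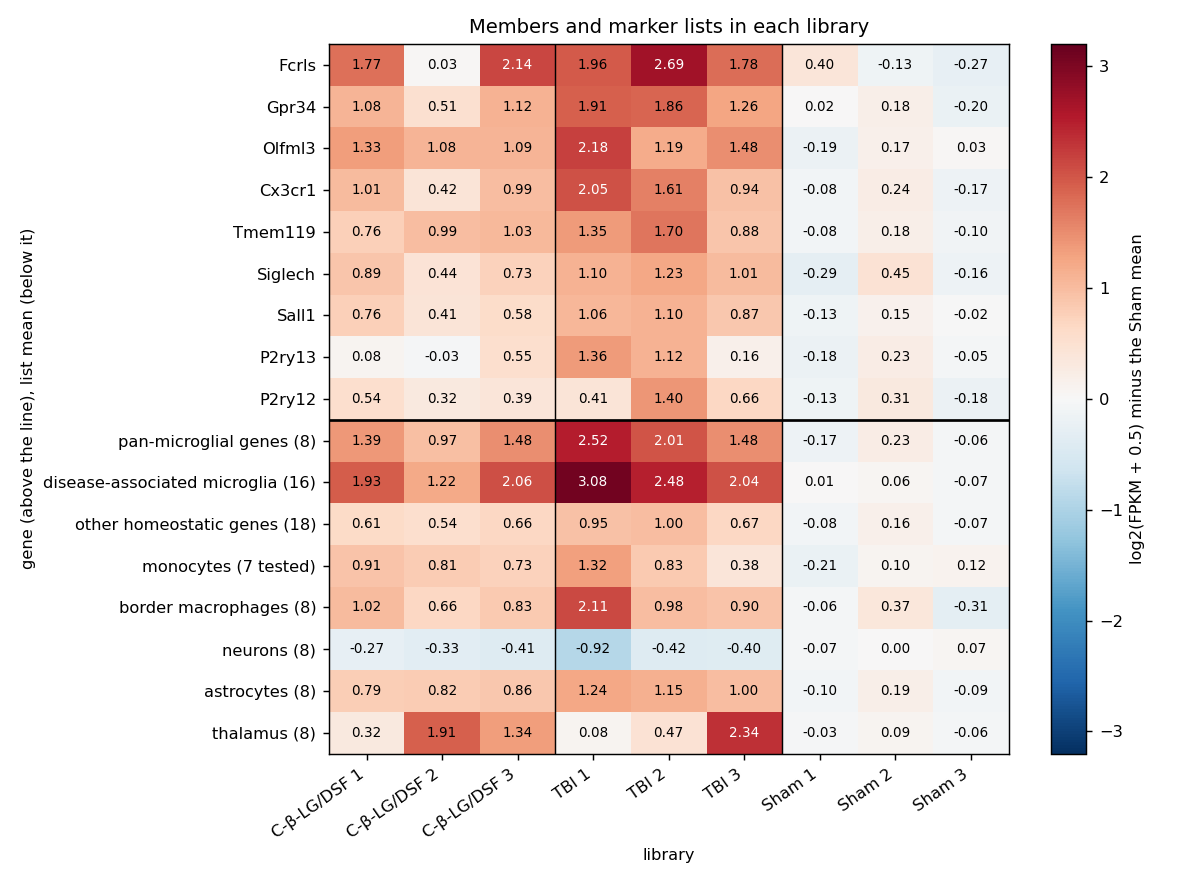
Log2(FPKM + 0.5) of each member (above the line) and mean of each marker list (below it, number of genes in brackets), relative to the Sham mean, in every library. TBI 1 is highest in the pan-microglial list (2.52) and the list of disease-associated microglia (3.08) but lowest of the TBI libraries in P2ry12 (33.6 FPKM).

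Genes of other cells and of activated microglia moved beside the members. Of 16 genes of disease-associated microglia, 4 were under 0.5 FPKM in every Sham library and could be tested only through the injured libraries. Spp1 and Gpnmb, with lowest Sham values of 0.356 and 0.438 FPKM, also passed the filter only with injured libraries. They stay among the other 12, which all rose in TBI against Sham (median log2 difference 1.35), where 14.9% of all genes rose. For Spp1 and Gpnmb the filter itself favoured a rise, so their part in this count and the following ones is no result. When C-β-LG/DSF was set against Sham, 5 of these 12 rose (median 0.97), Spp1 and Gpnmb among them, where 6.37% of all genes rose. Between C-β-LG/DSF and TBI 11 of the 12 were lower in value (median -0.72), as were 53.3% of genes tested. In limma 0 of the 12 passed and 8 had an unadjusted p under 0.05, as did 11.8% of all genes. The summed FPKM of all 16 was 2219 to 2782 in C-β-LG/DSF, 3231 to 5715 in TBI and 1536 to 1670 in Sham. Of 10 genes of infiltrating monocytes, 7 could be tested, 1 of them only through the injured libraries. Of the other 6, 3 rose in TBI against Sham, where 14.9% of all genes rose, and none fell at the threshold. Ms4a4c, 1 of these 6 but not of the 3, had a Sham median of 0 FPKM and also passed the filter only with injured libraries. The 10 genes had a summed 43.2 to 60.9 FPKM in C-β-LG/DSF, 43.9 to 112 FPKM in TBI and 19.7 to 40.6 FPKM in Sham. Ccr2, the chemokine receptor gene that defines inflammatory monocytes, did not reach the filter for testing, with 0.431 ± 0.123 FPKM in C-β-LG/DSF, 0.733 ± 0.720 FPKM in TBI and 0.0471 ± 0.0153 FPKM in Sham (SD, n = 3 each). Ly6c2, a surface protein gene of the same monocytes, was lower in value in TBI (TBI against Sham -2.16, limma adjusted p = 0.0821). It had 8.93 ± 2.73 FPKM in C-β-LG/DSF, 4.61 ± 6.17 FPKM in TBI and 13.8 ± 7.11 FPKM in Sham. With Ccr2 so low in Sham, the Ly6c2 value there cannot be read as monocytes, and it enters the summed FPKM of the 10 genes. The related gene Ly6c1, on the endothelial list, averaged 43.4 ± 2.04 FPKM in Sham. The source of the Ly6c2 values was not tested. Of 8 genes of border macrophages 1 was under 0.5 FPKM in every Sham library. Of the other 7, 4 rose in TBI against Sham, where 14.9% of all genes rose. Ms4a7, 1 of these 4, and Cd163, which did not pass in limma, had lowest Sham values of 0.0544 and 0.227 FPKM. Both met the filter only with injured libraries, so the part of Ms4a7 in the count of 4 is no result. The 8 genes of border macrophages had a summed 14.02 to 20.8 FPKM in C-β-LG/DSF, 21.8 to 55.0 FPKM in TBI and 4.95 to 10.4 FPKM in Sham. The 8 lymphocyte genes summed to 0.505 to 0.941 FPKM in C-β-LG/DSF, 0.643 to 0.885 FPKM in TBI and 0.292 to 0.429 FPKM in Sham, with Ncr1 listed at 0 in all TBI and Sham libraries and Cd3e in all Sham libraries. Of 8 genes each, 5 of astrocytes and 1 of endothelium rose in TBI against Sham, where 14.9% of all genes rose. Of 8 oligodendrocyte genes 0 passed there in limma (0 at an unadjusted p under 0.05). The part of these cells in the members' differences was not tested.

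Further genes that are high in resting microglia were mixed. Of 18 tested, 10 rose and 1 fell in TBI against Sham (median log2 difference 0.85), where 14.9% of all genes rose and 1709 of 14292 fell. When C-β-LG/DSF was set against Sham 6 rose and 1 fell (median 0.55), where 6.37% of genes rose and 6.88% fell. Between C-β-LG/DSF and TBI 0 of the 18 passed in limma, and 4 had an unadjusted p under 0.05, as did 11.8% of all genes. Among those of smallest p in TBI against Sham were the lectin gene Cd33 (1.73, SE 0.18) and the adhesion receptor gene Adgrg1 (1.07, SE 0.13). The gene that fell was Mef2c (-1.28, SE 0.21), a transcription factor gene that cortical neurons also express. The fructose transporter gene Slc2a5 (0.21, adjusted p = 0.4), the crystallin gene Crybb1 (0.41, adjusted p = 0.118) and the phagocytic receptor gene Mertk (0.31, adjusted p = 0.163) did not pass in TBI. These 3 were named after their values were seen.

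A list of partners held 18 genes of ligands, adaptors and enzymes of the members, other nucleotide receptors, TGF-beta family signalling and CSF1R ligands. Not all of their products act directly with a member. Of these 18, 9 rose and 1 fell in TBI against Sham. Over all genes 14.9% rose there and 26.8% passed in either direction. When C-β-LG/DSF was set against Sham 4 of the 18 rose and 1 fell, where 6.37% of all genes rose and 6.88% fell. Between C-β-LG/DSF and TBI 0 passed in limma, and 8 had an unadjusted p under 0.05, as did 11.8% of all genes. Cx3cl1, which encodes fractalkine, the neuronal ligand of CX3CR1, fell in TBI where its receptor gene rose. It averaged 213 ± 40.3 FPKM in C-β-LG/DSF, 174 ± 11.9 FPKM in TBI and 327 ± 23.0 FPKM in Sham (SD, n = 3 each). It fell in TBI against Sham by 0.91 (SE 0.13, adjusted p = 0.00212) and, with C-β-LG/DSF set against Sham, by 0.63 (SE 0.13, adjusted p = 0.0162). In these comparisons 5 and 2 of the 8 neuronal genes fell, where 1709 and 984 of all 14292 genes tested fell. Tyrobp, the adaptor through which Siglec-H signals, rose by 3.10 in TBI (SE 0.31, adjusted p = 7.74e-04). Entpd1, the enzyme that removes ATP and ADP outside cells, rose by 0.67 (SE 0.18, adjusted p = 0.0229), and Nt5e, which makes adenosine from AMP, did not pass (0.43, adjusted p = 0.101). The ATP-gated channel genes P2rx7 (1.36, SE 0.27, adjusted p = 0.00709) and P2rx4 (0.66, SE 0.21, adjusted p = 0.0479) rose.

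**Figure D5:**
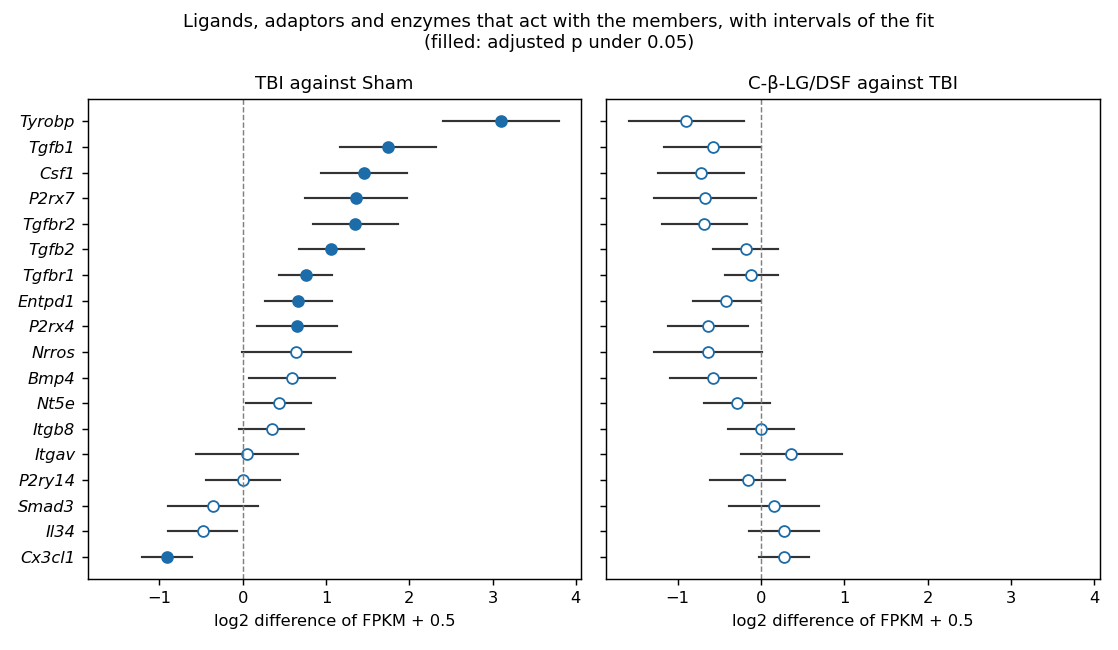
Log2 differences of FPKM + 0.5 for the 18 genes of the list of partners (points; filled where the adjusted p is under 0.05), with 95% intervals, in TBI against Sham (left) and C-β-LG/DSF against TBI (right). Not all of their products act directly with a member. Tyrobp has the highest difference in TBI against Sham (3.10) and Cx3cl1 the lowest (-0.91), and no point is filled on the right.

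TGF-beta signalling maintains SALL1 and the resting state of microglia. Its ligand genes Tgfb1 (1.74, SE 0.26, adjusted p = 0.00221) and Tgfb2 (1.06, SE 0.17, adjusted p = 0.00318) and its receptor genes Tgfbr2 (1.35, SE 0.23, adjusted p = 0.0035) and Tgfbr1 (0.75, SE 0.14, adjusted p = 0.00561) rose in TBI against Sham. Nrros, which anchors latent TGF-beta on microglia (0.64, adjusted p = 0.133), and the integrin genes Itgav (0.05, adjusted p = 0.904) and Itgb8 (0.35, adjusted p = 0.174) of its activation did not pass, nor did Smad3 (-0.36, adjusted p = 0.308) and Bmp4 (0.59, adjusted p = 0.0855). Of the ligands of the survival receptor CSF1R, Csf1 rose by 1.46 (SE 0.23, adjusted p = 0.00267), while Il34 was at -0.48 (SE 0.19, adjusted p = 0.0849).

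The genes most like the members were sought among 13147 others with a mean of at least 1 FPKM, by the root-mean-square distance of their log2 profile over the 9 libraries from the median profile of the members. That median profile, relative to Sham, was 0.89, 0.42 and 0.99 in C-β-LG/DSF 1 to 3, 1.36, 1.40 and 0.94 in TBI 1 to 3 and -0.13, 0.18 and -0.16 in Sham 1 to 3. The closest were Pik3cg (distance 0.11), a phosphoinositide 3-kinase gene of leukocytes, Ctsa (0.15), a lysosomal protease gene, Pbxip1 (0.16), Sqor (0.16), Hhex (0.17), a homeobox gene, and Myof (0.17). Of the members themselves, Siglech (0.17) and Sall1 (0.21) were nearest to the median and Fcrls (0.77) was farthest.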

How the data were processed

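Trizol RNA from mouse brain was sequenced from Illumina stranded total RNA libraries, per the labels. The submitters' processing notes name HISAT2 2.1.0 and Cufflinks 2.2.1. The authors deposited FPKM per gene and library, each with an interval. No source used here gives the genome build or annotation; 22452 of 22482 identifiers are in GENCODE M21 (GRCm38), whose positions are printed. Read counts are not given, and low values shared no common step (at most 3.84% of them stood at 1 ratio to Sham 1), so depth is unknown. None of the 19 values that the authors' program marked as failed belongs to a member. Itgam has 2 entries, of which the higher was used.

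Genes with an FPKM of at least 0.5 in at least 3 of 9 libraries (14292) entered, as log2(FPKM + 0.5), a model of group means (limma 3.58.1, R 4.3.3; 6 residual degrees of freedom; variance trend). Tests were two-sided, and the Benjamini-Hochberg method adjusted p over all genes. Calls have an adjusted p under 0.05. Differences are on the log2(FPKM + 0.5) scale, which understates those of low genes. An exact permutation test of 3 against 3 libraries cannot go below 0.1. The relative fit subtracts from every gene the mean of 8 pan-microglial genes in each library. The main fit was also run on simulated data with independent noise in each gene. That run held no shift shared between genes, no outlying library and no relative scale, so it does not cover these.

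Members, gene lists and tests were chosen with earlier results of these data known. Genes named are all members, the genes of smallest p in a list, tested partners, genes of the same locus and the 6 nearest profiles; a few genes that this rule takes are not reported here. Tyrobp and Csf1 are on 2 lists each. Alternatives were other pseudocounts, filters, scalings, variance models, samples and a replicate block.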

Additional observations from a re-analysis of the deposited data

How the results depend on the processing

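Of 180 refits of single members in each comparison, all kept their direction. In TBI against Sham 172 stayed on the same side of the threshold, 4 lost the call (P2ry12) and 4 gained it (P2ry13); between C-β-LG/DSF and TBI all 180 stayed, and between C-β-LG/DSF and Sham 149 stayed, 27 lost and 4 gained a call. Leaving out each library in turn, called members ranged from 7 to 9 in TBI against Sham, were 0 between C-β-LG/DSF and TBI and ranged from 0 to 6 between C-β-LG/DSF and Sham, against 8, 0 and 5. All genes called ranged from 2241 to 4377, 0 to 2 and 665 to 2935, against 3836, 0 and 1895. Members called relative to the pan-microglial genes ranged from 3 to 5 in TBI against Sham and from 1 to 4 between C-β-LG/DSF and Sham, against 5 and 3. Without the 3 libraries of highest thalamic markers, chosen after the data were seen, which leaves 1 C-β-LG/DSF library, assumed to vary like the other groups, the counts between C-β-LG/DSF and Sham were 1 member and 337 genes, and 1 gene passed between C-β-LG/DSF and TBI. In that comparison 2 genes passed with no filter on low values and 1 with no mean trend. With only C-β-LG/DSF and Sham fitted, 3444 genes passed. The other list of pan-microglial genes gave 8 and 7 members, with 98.0% and 95.3% of all genes lower. The cause of these changes was not tested, apart from the fewer samples.

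Libraries of the same number did not pair across groups: their deviations from the group means correlated at -0.09 to 0.33, with 2 of 9 pairs over 0.1. With the replicate number as a block, 8, 0 and 4 members and 3519, 0 and 1627 genes were called in the 3 comparisons, and on the relative scale 4, 0 and 2 members. The share of called genes that were higher was 55.4% in TBI against Sham and 48.1% between C-β-LG/DSF and Sham; after rescaling to equal totals it was 61.9% and 65.2%, and after quantile normalization 45.5% and 40.4%. No group has more than 3 libraries, too few to look for single outlying libraries.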
